A study of Mus musculus with 4 samples.

Results

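Trp63, Grhl1, Grhl2, Grhl3, Klf4, Ovol1, Hopx, Prdm1 and Gata3 encode 9 regulators of epidermal differentiation, and their transcripts were followed in primary mouse keratinocytes by genotype and calcium. The 9 genes were taken from the non-control probes that carry their names on the array, which gave 14 of 39426 probes and 9 of 30340 genes. Trp63 had 4 probes, Grhl2 and Hopx had 2 each and the other 6 genes 1 each, and every one of the 14 was well above background on all 4 arrays.

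Keratinocytes, the epithelial cells of the epidermis, were taken with 0.05% collagenase A from the skin of newborn C57BL/6 mice, either Pla2g2f+/+ or Pla2g2f-/-, and grown for 3 days. They were then kept for 48 h either with 1 mM CaCl2 or without it, which the series calls differentiated and control. Pla2g2f encodes a secreted phospholipase A2. The groups are therefore +/+ control, +/+ with calcium, -/- control and -/- with calcium, and all share the strain and the culture. RNA was pooled from 6 mice per genotype and each group was measured on 1 array, so no difference can be checked against replicates or tested, and a genotype cannot be told apart from its pool of cells. Whole skin was the source of both pools.

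Differentiation of the epidermis runs from a dividing basal layer through spinous and granular layers to the dead cornified layer, and raised calcium starts this sequence in culture. p63 (Trp63) maintains basal and stratified epithelial identity. The grainyhead-like factors (Grhl1, Grhl2, Grhl3), the zinc finger factors Klf4, Ovol1, Prdm1 and Gata3 and the homeodomain-only protein Hopx act at later steps, in cell junctions, exit from the cell cycle and barrier formation.

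Between 67.0% and 68.6% of probes were well above background on each array and no spot was saturated. Levels are the scanner signal divided by the 75th percentile of its array. Differences are on the log2 scale with the scanner software's error, which covers the spot and not the culture. On each array that error was 0.14 log2 for the brightest probe of every factor but Ovol1, where it reached 0.17. It is thus nearly the same value for every gene, and a difference beyond it has passed no test. The probe of Pla2g2f read 74.2% of the +/+ signal in -/- cells without calcium and 71.1% with it. The labels do not state which part of it was deleted, and the reading therefore checks nothing about the genotypes. Keratinocyte markers were strong on every array except Krt1, a spinous keratin, which was not well above background without calcium in either genotype. Of 10 keratinocyte markers 9 were well above background on both control arrays and 10 on both calcium arrays. The dimmest of the 10 was still at only -5.31 log2 on the +/+ and -5.42 on the -/- calcium array.

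Grhl1, Grhl3, Ovol1 and Hopx were at least 2-fold higher with calcium in both genotypes. Prdm1 was so in +/+ cells alone, and Klf4 was higher by less than 2-fold in both. With basal keratinocyte genes as the common level (basal scaling), Klf4 at 1.39 and 1.42 and Prdm1 at 1.66 in -/- cells passed 2-fold as well. The basal genes were themselves lower with calcium, with medians of -0.46 in +/+ and -0.53 in -/- cells (15 and 17 of 18 below 0). Basal scaling therefore raises the calcium differences of all genes together. Trp63, Grhl2 and Gata3 lay within 0.36 log2 of their control level, but were higher with calcium by 0.31 to 0.74 with basal scaling. In +/+ cells 5 of the 9 were at least 2-fold higher with calcium and 0 were lower, where 2.47% of 21129 genes compared were higher and 1.01% lower to that degree. In -/- cells 4 of the 9 were higher and 0 lower, where 2.99% of 21428 genes were higher and 0.602% lower. The median difference of the 9 was 1.69 in +/+ cells and 0.86 in -/- cells, beside -0.07 and -0.03 over all genes compared.

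**Figure D1:**
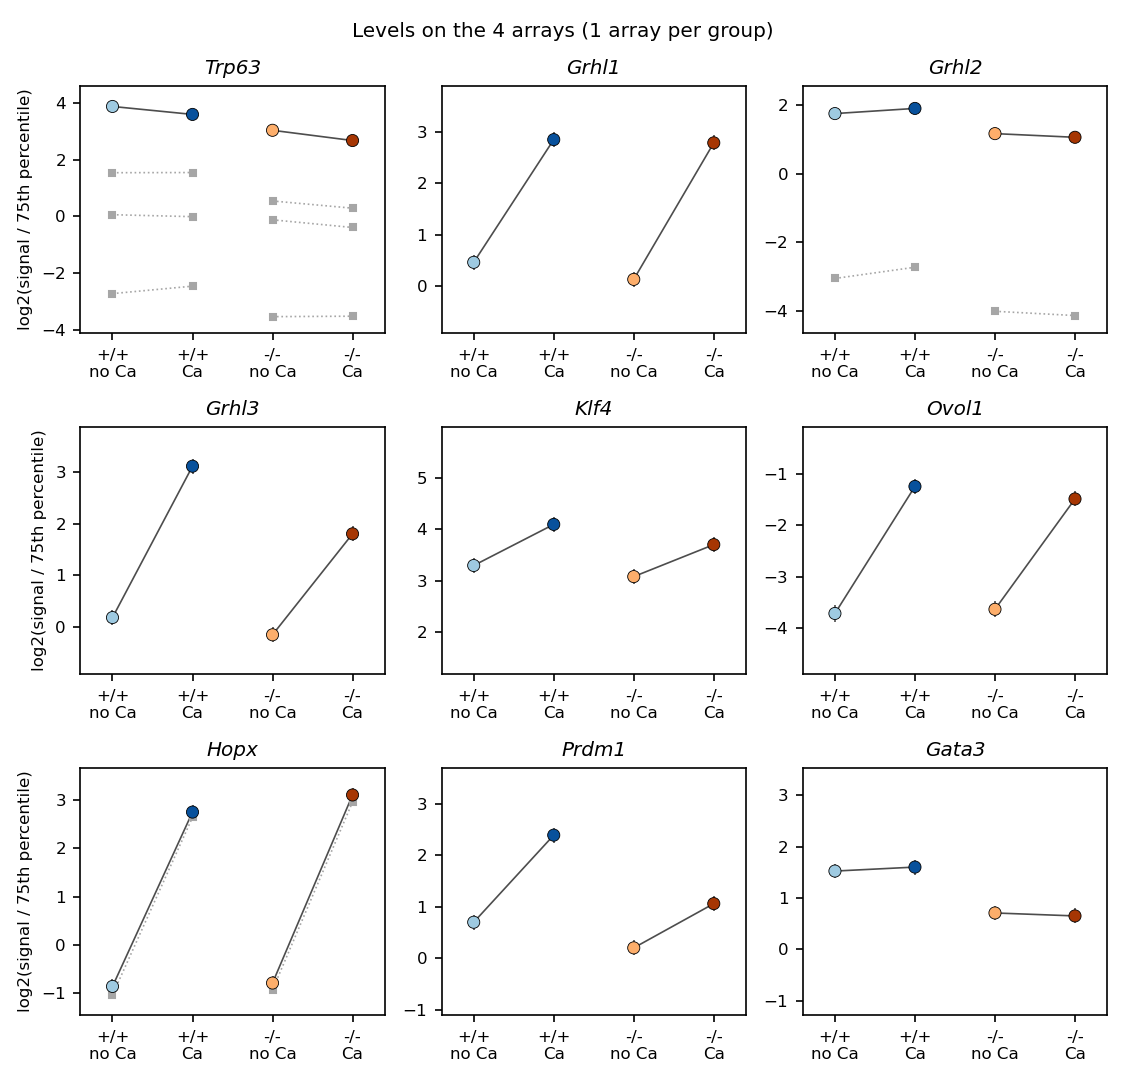
Level of each factor on the 4 arrays, as log2 of the signal over the 75th percentile of the array (vertical axis), for +/+ and -/- cells without and with calcium (horizontal axis). Filled circles with scanner error bars are the brightest probe of the gene, small grey squares its other probes, and lines join the control and calcium arrays of a genotype. Grhl1, Grhl3, Ovol1 and Hopx are high on both calcium arrays, while Trp63, Grhl2 and Gata3 are lower on both -/- arrays.

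Hopx showed the largest calcium difference of the 9. Hopx carries a homeodomain without DNA-binding residues and acts through partner proteins. Its brightest probe (chromosome 5, 77516460 to 77516519, mm9) read 0.552 and 6.74 times the 75th percentile on the control and calcium arrays of +/+ cells and 0.58 and 8.62 times in -/- cells. Both calcium arrays lay far above both control arrays, which differed from each other by less than the scanner error. The difference was 3.61 log2 (12.2-fold, scanner error 0.20) in +/+ cells and 3.89 (14.9-fold, error 0.20) in -/- cells. These ranked 49th of 21129 and 22nd of 21428 genes from the top. A second Hopx probe close by gave 3.68 and 3.89.

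The grainyhead-like genes, relatives of a Drosophila factor that builds the cuticle, did not move as one family. Grhl1, which controls the desmosomal cadherin desmoglein 1, read 1.38 and 7.21 times the 75th percentile on the control and calcium arrays of +/+ cells and 1.1 and 6.9 times in -/- cells (probe on chromosome 12, 25302095 to 25302154, mm9). It was 5.22-fold higher with calcium in +/+ and 6.29-fold higher in -/- cells, and the levels of the calcium arrays differed by less than the scanner error. Grhl3, a factor of barrier formation and wound closure, read 1.13 and 8.68 times in +/+ cells and 0.896 and 3.49 times in -/- cells (chromosome 4, 135097991 to 135098050, mm9). Its calcium difference was 2.94 log2 (7.68-fold) in +/+ cells and 1.96 (3.9-fold) in -/- cells. No neighbouring levels of Grhl3 were within the scanner error of each other, the order from low to high being -/- control, +/+ control, -/- with calcium and +/+ with calcium.

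Grhl2, which sustains E-cadherin and claudin expression in epithelia, stayed near its control level. Its brightest probe (chromosome 15, 37293139 to 37293198, mm9) read 3.37 and 3.74 times the 75th percentile on the control and calcium arrays of +/+ cells and 2.25 and 2.09 times in -/- cells. Calcium moved it by 0.15 and -0.11 log2, both less than the error of 0.20, but by 0.74 and 0.69 with basal scaling. Both -/- arrays lay below both +/+ arrays.

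Ovol1, a zinc finger repressor tied to exit from the cell cycle, was read from a dim probe that stayed well above background throughout. It read 0.0763 and 0.422 times the 75th percentile on the control and calcium arrays of +/+ cells and 0.0807 and 0.357 times in -/- cells (chromosome 19, 5549209 to 5549268, mm9). The calcium difference was 2.47 log2 (5.54-fold, error 0.22) in +/+ and 2.14 (4.42-fold, error 0.21) in -/- cells. With normexp background correction, which compresses dim signals, these were 1.97 and 1.77.

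Prdm1 encodes Blimp1, a repressor needed in the granular layer. It read 1.62 and 5.25 times the 75th percentile on the control and calcium arrays of +/+ cells and 1.15 and 2.09 times in -/- cells (chromosome 10, 44157089 to 44157148, mm9). It was 3.23-fold higher with calcium (1.69 log2) in +/+ cells and 1.81-fold higher (0.86) in -/- cells, so that the -/- level with calcium lay nearest to the +/+ control level. Klf4, a Kruppel-like factor required for the barrier, read 9.8 and 17.1 times in +/+ cells and 8.44 and 13 times in -/- cells (chromosome 4, 55540167 to 55540226, mm9). The differences of 0.80 (1.74-fold) and 0.62 (1.54-fold) were larger than the scanner error of 0.20 and smaller than 2-fold.

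Gata3, a zinc finger factor of suprabasal epidermis and of the inner root sheath of the hair follicle, read 2.87 and 3.03 times the 75th percentile on the control and calcium arrays of +/+ cells and 1.63 and 1.57 times in -/- cells (chromosome 2, 9779551 to 9779610, mm9). Calcium moved it by 0.08 and -0.06 log2, within the scanner error, but by 0.665 and 0.74 with basal scaling. The -/- arrays were the lower pair.

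**Figure D2:**
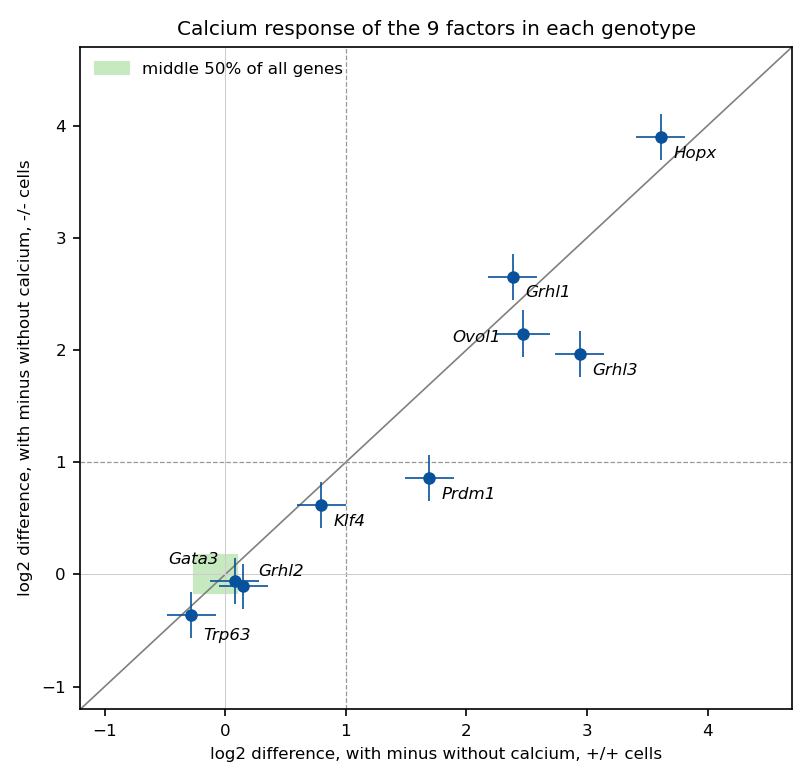
Log2 difference between cells with and without calcium in +/+ (horizontal axis) and -/- cells (vertical axis) for the 9 factors, with scanner error bars. The diagonal marks equal responses, dashed lines mark 2-fold and the green box holds the middle 50% of all genes on each axis. Grhl3 and Prdm1 lie farthest below the diagonal, Hopx and Grhl1 slightly above it.

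Set against each other, the calcium differences of -/- and +/+ cells were furthest apart for Grhl3 and Prdm1. The difference of the responses, -/- minus +/+, was -0.98 log2 for Grhl3 (scanner error 0.29) and -0.83 for Prdm1 (error 0.29). It was -0.32 for Ovol1 (error 0.31), -0.26 for Grhl2, -0.18 for Klf4, -0.13 for Gata3 and -0.08 for Trp63, and 0.28 for Hopx and 0.27 for Grhl1, with those of Klf4, Gata3 and Trp63 turning to 0.03, 0.07 and 0.13 with basal scaling. Grhl3, Prdm1 and, narrowly, Ovol1 exceeded their scanner error. Ovol1 no longer did with normexp (-0.20) or basal scaling (-0.12). Hopx and Grhl1 did with basal (0.49 and 0.48) and quantile scaling (0.47 and 0.39). Hopx narrowly did with normexp (0.30), and Grhl2 did with averaged probes (-0.35). None of the 9 reached 2-fold, where 1.91% of 19227 genes were higher and 0.629% lower to that degree, though Grhl3 was at -1.01 when arrays were scaled by detected probes. Grhl3 ranked 132nd and Prdm1 193rd of the 19227 from the low end, and the median of all was 0.02. Each group is 1 array, so this was not tested, and the comparisons of genotype and calcium share these same 4 arrays.

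The sequence just before the transcription start was read for short motifs in those of the 9 factors that had a window. RefSeq windows (GRCm38.p6) were found for 6 of the 9 genes, with 2 starts each for Grhl1 and Hopx. Trp63, Grhl2 and Ovol1 had none, so what the factors higher with calcium share there cannot be read for all of them. The windows printed, of 250 bases, are those of Grhl3 and Prdm1, whose calcium differences were furthest apart between genotypes, and of the downstream start of Hopx, which had the largest calcium difference. They are given 5′ to 3′, with capitals for a CCAAT box (CCAAT or its reverse complement ATTGG) and for the AP-1-like letters TGANTCA.
Grhl3, chr4:135573633-135573882, minus strand: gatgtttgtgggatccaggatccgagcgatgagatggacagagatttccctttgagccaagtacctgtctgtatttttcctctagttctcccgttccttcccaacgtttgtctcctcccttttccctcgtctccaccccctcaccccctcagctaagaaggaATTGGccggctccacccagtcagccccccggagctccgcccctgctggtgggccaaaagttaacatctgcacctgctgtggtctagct
Prdm1, chr10:44458749-44458998, minus strand: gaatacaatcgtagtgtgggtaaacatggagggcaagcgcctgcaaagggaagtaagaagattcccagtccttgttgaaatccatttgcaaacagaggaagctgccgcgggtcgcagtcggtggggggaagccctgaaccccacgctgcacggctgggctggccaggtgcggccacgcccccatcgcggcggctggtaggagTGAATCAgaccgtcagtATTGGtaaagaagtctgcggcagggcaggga
Hopx, chr5:77095268-77095517, minus strand: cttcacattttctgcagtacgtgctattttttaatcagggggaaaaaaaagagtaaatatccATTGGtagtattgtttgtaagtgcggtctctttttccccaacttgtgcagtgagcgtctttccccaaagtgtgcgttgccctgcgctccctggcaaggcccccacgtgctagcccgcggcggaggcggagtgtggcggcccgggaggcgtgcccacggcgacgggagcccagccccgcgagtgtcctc

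A CCAAT box stood 88 bases before the start in Grhl3, 31 in Prdm1 and 188 in Hopx. It was present in 5 of the 8 windows found, both of Hopx among them, and in 33.9% of all 32851 windows of this length. The windows of Klf4 and Gata3 and the second window of Grhl1 had none. TGANTCA was present in the Prdm1 window alone, as TGAATCA at 48 bases before the start, and in 6.75% of all windows. The grainyhead letters AACCGGTT (0.116% of all windows) and AACNGGTT (1.79%), the Kruppel-like letters GGGTGTG (6.93%), the GATA letters AGATAA (9.99%), the Ovo letters CCGTTA (2.18%), TATAAA (12.4%) and the p53-family half-site (7.13%) were in none of the 8, on either strand. A match or its lack says nothing about binding.

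Without calcium none of the 9 factors differed 2-fold between the genotypes, but 7 were lower in -/- cells by more than the scanner error, Trp63, Gata3 and Grhl2 by the most. Here 4.65% of 21346 genes were at least 2-fold higher and 4.32% lower. Of the 9 factors, 7 were below 0 and 2 (Hopx, and Ovol1 at 0.08, which was -0.04 with normexp) above. Of all genes compared only 31.1% were above 0, so most genes lay below 0 as well. The median of the 9 was -0.34 beside -0.18 over all genes. Trp63 was lower by 1.79-fold (-0.84), Gata3 by 1.76-fold (-0.81) and Grhl2 by 1.5-fold (-0.58), each with an error of 0.20. Relative to the median gene these were -0.67, -0.64 and -0.41. Prdm1 was 1.41-fold lower (-0.50). Grhl1 (-0.33), Grhl3 (-0.34) and Klf4 (-0.22) lay within 0.16 of the median gene. Klf4 fell within its scanner error of 0.20 with normexp (-0.19), quantile (-0.13) and basal scaling (-0.14).

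With calcium Grhl3 and Prdm1 were at least 2-fold lower in -/- cells, 2 of the 9 factors where 3.05% of 21564 genes were lower to that degree and 6.55% higher. The differences were -1.31 log2 (2.49-fold) for Grhl3 and -1.33 (2.52-fold) for Prdm1. Gata3 was 1.93-fold lower (-0.95), Trp63 1.9-fold lower (-0.92) and Grhl2 1.79-fold lower (-0.84). Klf4 was 1.31-fold lower (-0.39) and Ovol1 1.18-fold lower (-0.24, but 0.04 with basal scaling). Grhl1 differed by -0.06, within its error of 0.20 and above 0 with quantile (0.09) and basal scaling (0.22), and Hopx was 1.28-fold higher in -/- cells (0.35). The median of the 9 was -0.84, beside -0.16 over all genes.

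**Figure D3:**
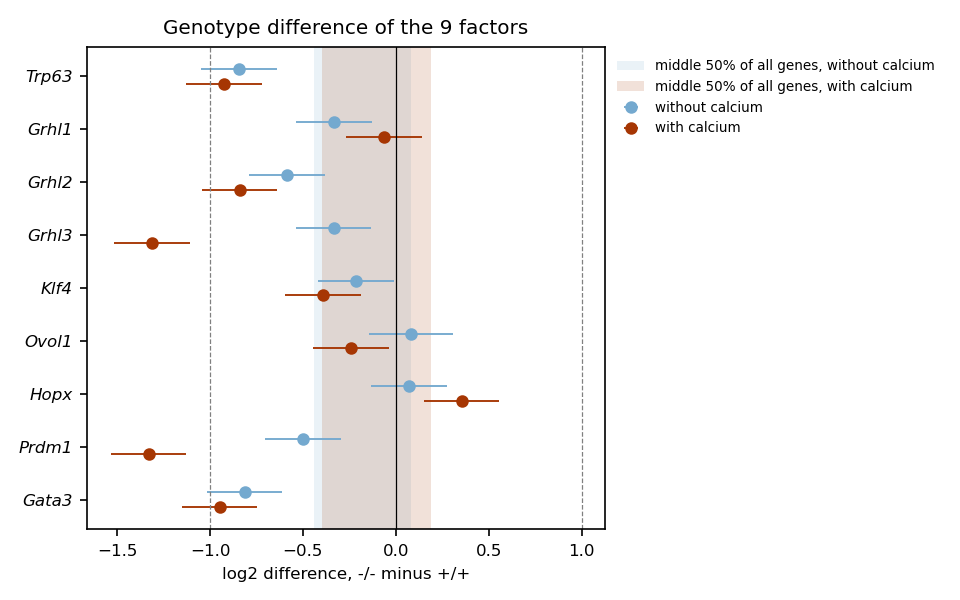
Log2 difference between -/- and +/+ cells (horizontal axis) for the 9 factors, without calcium (blue) and with calcium (brown), with scanner error bars. Shaded bands hold the middle 50% of all genes, dashed lines mark 2-fold. With calcium Grhl3 and Prdm1 lie beyond the 2-fold line, while Trp63 and Gata3 lie near it in both states.

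The other probes of Trp63 bear on its genotype difference, since p63 is made as several isoforms from alternative promoters and ends, of which the form without the N-terminal activation domain prevails in epidermis. The first 30 of the 60 bases of each probe are given 5′ to 3′ with the probe that stood for the gene first, all on the plus strand of chromosome 16 (mm9) and marked in the files by the transcript they were designed on.
Transcript variant 4, chr16:25892012-25892071: caaaaggtactttcttatagacatgatact
Clone AK138305, chr16:25821344-25821403: acttaccatgtgtcctggctatagcttttc
Transcript variant 3, chr16:25871159-25871218: acacgatcgaaacgtacaggcagcagcagc
Clone AK048623, chr16:25867718-25867777: cagtcccatataccatgcacttaactcttt

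The probes differed in the size of the genotype difference. The variant 4 probe read 14.7 and 12.1 times the 75th percentile on the control and calcium arrays of +/+ cells and 8.23 and 6.4 times in -/- cells, all 4 levels being further apart than the scanner error. With calcium its difference was -0.28 and -0.36, but 0.31 and 0.43 with basal scaling. The AK138305 probe read 2.91 and 2.92 times in +/+ cells and 1.46 and 1.22 times in -/- cells, so -/- cells were just short of 2-fold lower without calcium and 2.39-fold lower with it. The AK048623 probe differed by -0.81 and -1.06, so both clone probes passed 2-fold with calcium where the variant 4 probe did not. The variant 3 probe differed by -0.18 without calcium, as the median gene did, and by -0.38 with it, below the median gene. Calcium moved the 4 probes by between -0.28 and 0.26 in +/+ cells and between -0.36 and 0.02 in -/- cells. Which isoforms each probe reads is not settled by the files.

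Grhl2 also had a second probe, designed on the same transcript upstream of the first and given in the same way, both on the plus strand of chromosome 15 (mm9).
Brightest probe, chr15:37293139-37293198: ccctttctgaaggacaagcaggggagactc
Second probe, chr15:37239426-37239485: acaaggagagcttcaacaccatcgggaaca

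The second Grhl2 probe read 0.121 and 0.151 times the 75th percentile in +/+ cells and 0.0622 and 0.0571 times in -/- cells. Its genotype difference was -0.96 without and -1.41 with calcium (error 0.22), against -0.58 and -0.84 for the brightest probe. Averaged over both probes Grhl2 was -1.12 with calcium, which would make 3 of the 9 factors at least 2-fold lower in -/- cells.

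The -/- arrays also carried more transcript of several cell types other than keratinocytes. Mast cell markers (8 of 9 well above background on every array, Ms4a2 on none) summed to 1.52 and 1.69 times the 75th percentile on the control and calcium arrays of +/+ cells and to 11.4 times on both -/- arrays. Adipocyte markers summed to 39.6 and 26.6 against 129.9 and 105.1 times, with 8 of 9 well above background. Myeloid markers summed to 8.85 and 7.98 against 25.7 and 37.9 times (13 of 14), and fibroblast markers to 144.1 and 126.5 against 228.3 and 243.8 times (12 of 12). Keratinocyte markers went the other way, at 409.7 and 456.3 against 339.1 and 333.6 times, and their median genotype difference was -0.20 without and -0.41 with calcium. Fewer keratinocytes and less RNA per keratinocyte cannot be told apart in such samples, and the part of these markers in the lower Trp63, Gata3, Grhl2, Grhl3 and Prdm1, and that of the lists that follow, was not tested. Scaled to basal keratinocyte genes, the genotype difference was -0.77 and -0.64 for Trp63, -0.74 and -0.66 for Gata3, and with calcium -1.03 for Grhl3 and -1.05 for Prdm1. Markers of the inner root sheath and hair matrix, where Gata3 acts, summed to 6.30 and 9.56 against 5.07 and 6.33 times. Of 11, Krt25, Krt27 and Shh were well above background on no array, and the median genotype difference was -0.50 without calcium (6 of 7 below 0) and -0.18 with it (4 of 8 below 0). Gata3 is also a T and innate lymphoid cell gene. Of 12 such markers 8 were well above background in +/+ and 9 in -/- cells, Cd3d, Cd3g and Cd8a were on no array, and their sum was 3.19 and 3.66 against 2.41 and 2.44 times. Prdm1 is also a gene of plasma cells and sebaceous glands. The plasma cell marker Jchain and the B cell markers Cd79b and Ms4a1 were not well above background on any array. The whole list of 7 B and plasma cell genes, of which 3 or 4 were well above background on each array, summed to 37.0 and 41.1 against 35.1 and 36.6 times. Sebaceous markers summed to 52.5 and 60.9 against 57.4 and 55.8 times, sums dominated by the brightest marker (log2 5.70 and 5.91 against 5.81 and 5.69). Awat1 and Far2 were well above background on no array, and Elovl3 only on the -/- arrays. The median genotype difference of the 6 compared was 0.47 without calcium (4 above 0) and 0.31 with it (3 above 0). In each state 2 of the 6 were at least 2-fold higher in -/- cells and 0 lower.

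Among 31 other epidermal transcription factors compared, 6 were at least 2-fold higher with calcium in +/+ cells and 3 in -/- cells, and 0 were lower. The median was 0.10 and 0.18. Ehf, an Ets factor of differentiating epithelia, was 23.3-fold higher in +/+ and 10.9-fold in -/- cells. Zfp750, a zinc finger factor downstream of p63 that drives terminal differentiation, was 5.33-fold and 5.92-fold higher. Foxn1, the forkhead factor absent in nude mice, was 5.2-fold higher in +/+ cells and at least 2.41-fold in -/- cells, where its control array was not well above background. The Ets factor Elf3 was 3.05-fold higher in +/+ and 1.37-fold in -/- cells.

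Between the genotypes the same 31 factors gave 2 at least 2-fold higher and 0 lower in -/- cells without calcium, and 3 higher and 7 lower with calcium. The lower factors with the largest differences were Foxn1 (-2.00), Ehf (-1.68), Elf3 (-1.66) and Klf5 (-1.13), a Kruppel-like factor of basal epithelial cells that was also -0.99 without calcium. The response difference was -1.10 for Ehf and -1.16 for Elf3, beside -0.98 for Grhl3. Among the higher factors were Maf (1.11 without and 1.82 with calcium) and Cebpa (1.18 and 1.22). Maf is also a macrophage factor and Cebpa an adipocyte and myeloid factor besides their epidermal roles, and the myeloid list had a median of 1.89 without and 3.07 with calcium. That part was not tested.

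**Figure D4:**
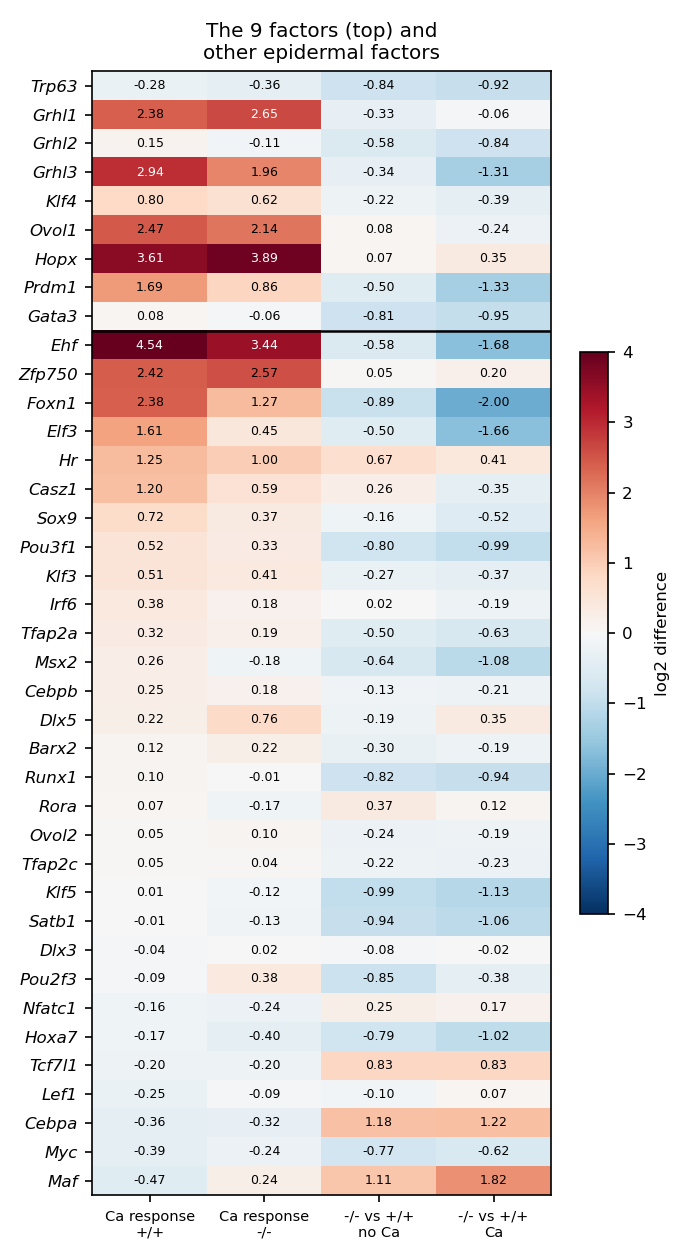
Log2 differences (colour and printed value) of the 9 factors, above the line, and of other epidermal transcription factors, in the 4 comparisons. Values of Foxn1 for the -/- calcium response and for the genotypes without calcium are bounds. Ehf (4.54 and 3.44), Zfp750 (2.42 and 2.57) and Foxn1 are high with calcium, and Foxn1, Ehf and Elf3 are low in -/- cells with calcium.

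Close relatives of the 9 mostly stayed near their control level with calcium: of 20 compared in +/+ cells 1 was at least 2-fold higher, and of 21 in -/- cells 2 were. Tfcp2l1, a member of the grainyhead superfamily, was 6.16-fold higher in +/+ and 4.85-fold in -/- cells, and it was 2.41-fold lower in -/- than in +/+ cells without calcium and 3.07-fold lower with it. The other in -/- cells was Gata4, a factor of heart and gut, at 2.33-fold from a low signal. The mast cell and blood factors Gata1 and Gata2 went opposite to Gata3 by genotype. Gata2 was 6.9-fold higher in -/- cells without and 7.02-fold with calcium, and Gata1 at least 9.69-fold and 9.77-fold. The mast cell list had medians of 3.16 and 3.74 in the same comparisons, and its part in these 2 genes was not tested.

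Genes known to be under the control of the 9 were taken as lists from general knowledge, not from binding data. Of 13 grainyhead-like target genes 8 were at least 2-fold higher with calcium in each genotype and 0 lower, with medians of 1.43 and 2.13. Tgm1, the cross-linking enzyme that Grhl3 controls, was 20.5-fold higher in +/+ and 9.7-fold in -/- cells, and its response difference was -1.08, that of Grhl3 being -0.98. The 10 targets with a response difference split into 5 above and 5 below 0 (median -0.11), Ivl being at 0.49 and Rab25 at 0.27. With calcium Tgm1 was 2.17-fold lower in -/- cells. Desmoglein 1 genes, controlled by Grhl1, were not lower: with calcium Dsg1a was 10-fold, Dsg1b 1.73-fold and Dsg1c 1.36-fold higher in -/- cells. These near-identical genes may share signal between probes, and Dsg1a was not well above background on either control array. Of the junction genes linked to Grhl2, Cdh1 moved by 0.19 and 0.21 and Rab25 by 1.55 and 1.82 with calcium in +/+ and -/- cells, and with calcium they differed by -0.23 and -0.28 between genotypes. The claudin Cldn4 moved by 1.43 and 0.86 with calcium and differed by -0.47 between genotypes with it.

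Of 17 p63 target genes 0 were at least 2-fold higher and 2, the integrin Itga3 and the Notch ligand Jag2, at least 2-fold lower with calcium in each genotype. Itga3 was 2.41-fold and Jag2 2.47-fold lower in +/+ cells and 2.17-fold and 2.09-fold lower in -/- cells. By genotype 15 of the 17 were below 0 without calcium (median -0.22) and 17 of 17 with calcium (median -0.41), beside all-gene medians of -0.18 and -0.16. Of all genes compared, only 31.1% and 36.7% were above 0. Keratinocyte markers were below 0 in 9 of 9 and 10 of 10, and basal keratinocyte genes in 15 and 14 of 18. These lists share genes with the p63 targets and were not compared without them. Whether the direction is particular to the p63 targets was therefore not tested. Satb1, a chromatin organiser downstream of p63, was the only one of the 17 at 2-fold, at -1.06 with calcium, and the basal keratins Krt5 and Krt14 were at -0.57 and -0.53. Myc, which Ovol1 and Prdm1 repress, was lower with calcium by -0.39 and -0.24 and lower in -/- cells by -0.77 without calcium and -0.62 with it. Agpat5, an acyltransferase that Gata3 controls, differed by -0.26 and -0.13 between the genotypes.

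Early differentiation genes had medians of 1.14 and 1.60 with calcium in +/+ and -/- cells (10 and 12 of 17 at least 2-fold higher), and late genes 4.05 and 2.08 (21 and 20 of 23). With calcium the late list had a median of -1.17 between genotypes, with 13 of 23 at least 2-fold lower in -/- cells, and the early list -0.28, with 0 of 17 lower.

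**Figure D5:**
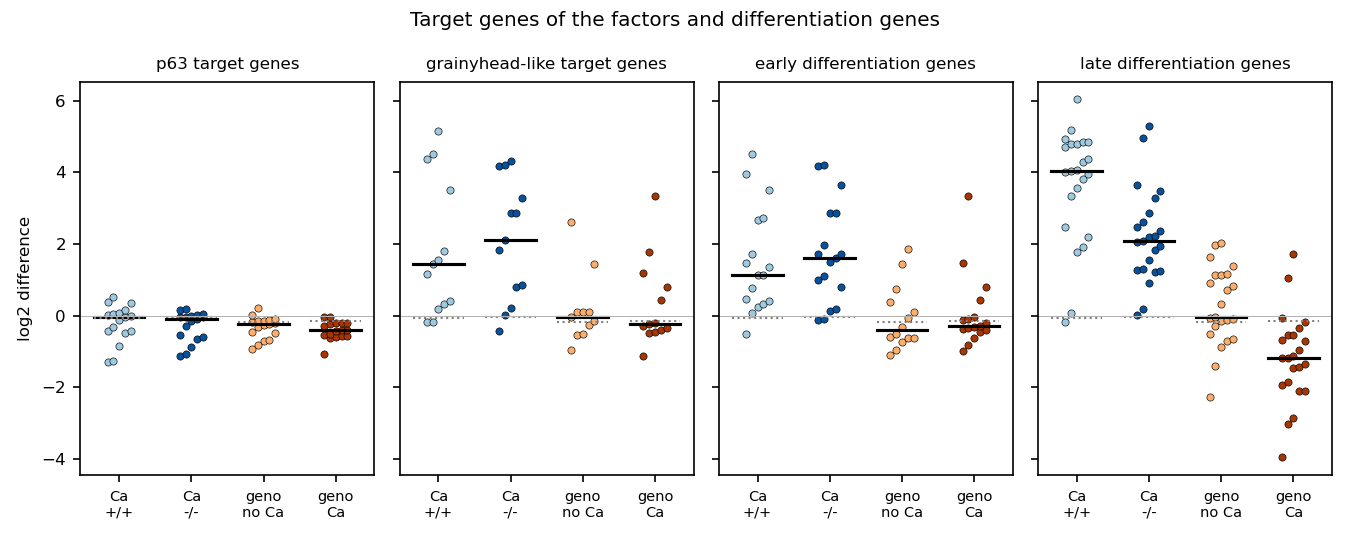
Log2 differences (vertical axis) of single genes in 4 lists, for the calcium response of +/+ and -/- cells and the genotype difference without and with calcium (horizontal axis). Thick lines are list medians, dotted lines medians of all genes, and points include lower bounds for genes dim on 1 array. The p63 targets lie near 0 with calcium, and the late list has medians of 4.05 and 2.08.

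Genes with the most similar profile over the 4 arrays were found among 14352 named genes well above background on all of them, as the root mean square difference of log2 levels centred on each gene's mean. Nearest to Grhl3 were Dnase1l3 (0.11), Prnd (0.14) and Lmo7 (0.15), and only 4 genes lay within 0.2. For Hopx they were Xkrx (0.09), Bicdl2 (0.13) and Ly6g6c (0.21), with 2 genes within 0.2. Among the nearest to Prdm1 were Dusp10 (0.09) and Sdcbp2 (0.10). For Ovol1 they were Pcdh1 (0.08), Sowahb (0.09) and Cldn3 (0.12), and for Grhl1 Tmprss2 (0.10), Klk10 (0.12) and Ly6m (0.13). The factors near their control level had many such neighbours, 647 within 0.2 for Trp63, 2488 for Grhl2, 1161 for Gata3 and 324 for Klf4, so their nearest genes are not named as alike in any further sense.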

How the data were processed

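Each of the 4 arrays was 1-colour, with 200 ng of RNA labelled per the labels. Per the file headers, the authors used Agilent Feature Extraction (version 11.5.1.1), and each deposited intensity is a signal from which background and a spatial trend had already been removed. The deposited value table is a ratio in which the authors divided each signal by about the 75th percentile of its array, on a linear scale (largest relative deviation 0.000583). Its medians were 0.066, 0.0623, 0.0612 and 0.0645 in the order +/+ control, +/+ calcium, -/- control and -/- calcium.

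From the signals, outlier spots (105 to 116 per array) were dropped, log2 was taken and the 75th percentile of the array was subtracted. A gene was read from its brightest probe, and 27507 probes were named by RefSeq accession. A comparison needed a probe well above background on 1 of the 2 arrays. A dim array was set to the higher of its own value and its lowest probe well above background, giving a bound ("at least"). Calls are at 2-fold. Positions are mm9, and gene structure at the probes was not used here.

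The 9 factors and the lists were chosen with earlier results of these data known. Named are the 9, up to 4 genes per list and comparison, genes a factor is known to control, and the 3 nearest profiles. Some genes this rule covers are not reported here. The comparison step was tested on simulated data. Scanner error covers a spot, and over the 10 spots of a repeated probe the median SD was 0.07 log2. Software was Python 3.11.15, numpy 2.4.6, pandas 2.3.3 and, for normexp and quantile settings, R 4.3.3 with limma 3.58.1.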

Additional observations from a re-analysis of the deposited data

How the results depend on the processing

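The 4 comparisons were repeated with normexp background correction (offset 50), quantile scaling, the median of detected probes or of basal keratinocyte genes as the scale, averaged probes, the deposited ratios, and the dim-probe filter on both arrays or none. With 1 array per group, no array could be left out. Of 45 member differences 35 kept their sign in every setting run, and none at 2-fold or more changed sign. Counts of factors at 2-fold stayed at 5, 4, 0 and 2 except with basal scaling, which gave 6 in both calcium responses by adding Klf4 and, in -/- cells, Prdm1, and with probe means, which gave 3 by genotype with calcium. Trp63 with calcium turned from -0.28 and -0.36 to 0.31 and 0.43 with basal scaling, which moved the median gene from -0.07 and -0.03 to 0.51 and 0.77. Grhl3's response difference ranged from -1.01 (past 2-fold) to -0.77 and Prdm1's from -0.86 to -0.62.

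All genes at 2-fold in +/+ cells with calcium numbered 736, against 390 with normexp, 1646 with basal scaling and 1983 unfiltered. In -/- cells they numbered 769, against 344, 4845, 2366 unfiltered and 494 with both arrays above background. By genotype without calcium they numbered 1914, against 842 with normexp and 4314 unfiltered, and with calcium 2071, against 1321 and 3522. The share of higher genes among these moved from 70.9% to 97.2% (basal), 84.1% (normexp) and 44.7% (unfiltered) in +/+ cells, from 83.2% to 99.8% (basal) and 73.1% (quantile) in -/- cells, from 51.8% to 77.7% (normexp), 74.4% (quantile) and 30.9% (unfiltered) without calcium and from 68.2% to 86.7% (basal) with it. Basal scaling shifts all genes of an array together, and the cause of the other moves was not tested.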
